A study of Drosophila melanogaster with 10 samples.

Results

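The odorant binding protein (Obp) genes were taken as every gene of the count table whose name starts with Obp followed by a digit, which gave 51 of 16727 genes. Odorant binding proteins are small secreted proteins that carry hydrophobic ligands such as odorants, pheromones and fatty acids through watery fluids. They are best known from the lymph that bathes the sensory neurons of antennal and taste hairs. Several are made outside sense organs, including in glia, fat body and the male reproductive tract. The family is named by map position, so genes with the same number, such as Obp56a to Obp56i, lie near each other. Under this naming rule lush, an odorant binding protein gene with a name of its own, was not counted as a member.

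The libraries were polyA-selected RNA from brains of wandering Drosophila melanogaster larvae in the third instar, the last larval stage, with 25 brains in each. The genotypes were 12xWT, labelled with 12 wild-type histone gene repeats, and yw, labelled with 200, where a repeat is a block holding 1 copy of each replication-dependent histone gene. There were 3 libraries of 12xWT males, 3 of 12xWT females, 2 of yw males and 2 of yw females. Each repeat number is present as 1 stock, so repeat number and any other difference between the stocks cannot be told apart. The labels give no other allele, agent or age. Nothing in them says that replicates came from separate cultures, so p-values measure the spread between these libraries, which may be technical. The libraries are whole brains, and fewer cells of a type cannot be told apart from less RNA per cell.

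Each library held 52.02 to 79.92 M counts over all genes, and a level is a gene's counts per 1 M of these (CPM). The limit set for a gene without counts was 3 counts, equal to 0.0375 CPM in the deepest library and 0.0577 CPM in the shallowest, and it covers counting error only. The white gene w, a stock marker, was at 224 to 299 CPM in 12xWT and 0.0890 to 0.175 CPM in yw. The libraries labelled 12xWT female did not look purely female. Their summed level of 7 Y-linked genes was 4.30 to 17.6 CPM, beside 19.3 to 22.4 in 12xWT males, 0.105 to 0.260 in yw males and at most 0.0356 in yw females. For roX2, an RNA of the male dosage compensation complex, 12xWT males had 35.7 to 48.0 CPM, 12xWT females 7.34 to 15.1, yw males 65.3 to 67.8 and yw females 0.0769 to 2.88. For the 10 Obp genes given by library, genotype results over both sexes are therefore also given without the 3 libraries labelled 12xWT female. The same holds for the calls of the sex comparison. The Obp share and the tests of marker lists, neighbouring genes and single other members include those libraries and are not given without them. Markers of brain cells were high in all libraries, at 1074 to 1385 CPM summed for glia and 4095 to 4991 CPM for neurons.

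Few Obp genes were expressed in the larval brain libraries. No count was found in any library for 8 members, namely Obp47b, Obp50a, Obp50b, Obp50c, Obp56e, Obp56f, Obp57a and Obp57d. Obp50b and Obp50c have identical exons in the annotation, so the counting used could give reads to neither, and their 0 is not informative. Obp47b, Obp56e and Obp57d share part of their exon sequence with CG7741, CR44509 and Cpr57A. Reads from the shared parts could have been lost, so their 0 is less certain. Another 29 members had counts but stayed under the filter on low counts, with at most 23 counts and 0.402 CPM in any library. These included Obp83a and Obp83b, which encode the antennal proteins OS-F and OS-E, Obp59a, known for its part in sensing humidity, and Obp22a, a seminal fluid protein gene. The filter passed 14 members for testing. Only 6 of these reached a mean of 1 CPM in any group of genotype and sex, and 4 (Obp44a, Obp99a, Obp99b and Obp49a) did so over all 10 libraries, a level that 8695 genes of the table reached. Between 29 and 34 members had at least 1 count in a library, and 13 to 23 had more than 3.

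**Figure D1:**
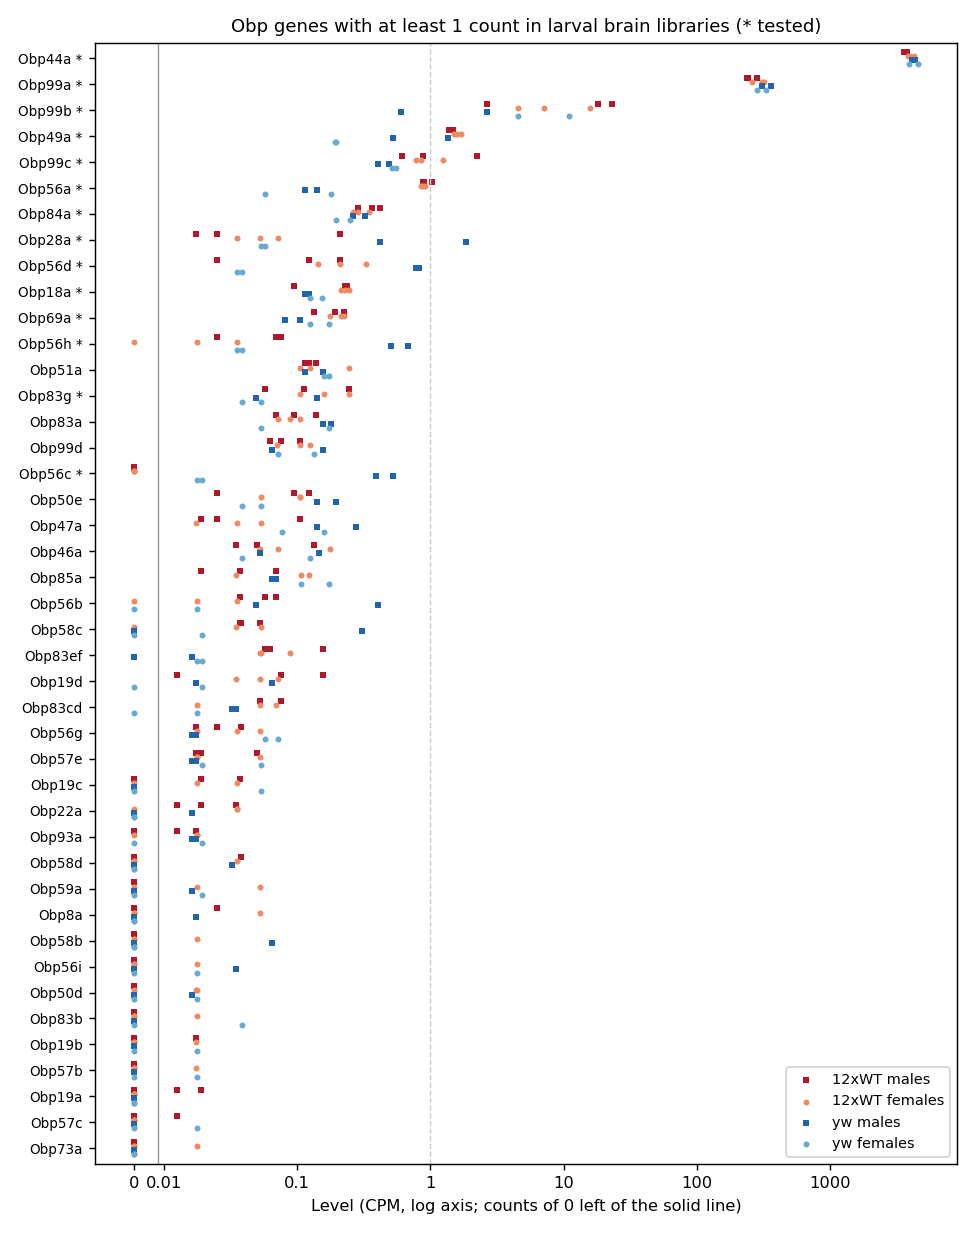
Level in CPM (horizontal log axis) of each Obp gene with at least 1 count, 1 point per library, with 0 counts drawn left of the solid line and a dashed line at 1 CPM. Squares are males, circles are females, red shades are 12xWT and blue shades are yw, and a star marks the 14 tested genes. Obp44a and Obp99a stand far above the others, and no untested gene exceeds 0.402 CPM in a library.

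Obp44a supplied nearly all Obp transcripts. This gene, at 8134170 to 8135315 on chromosome 2R (dm6, minus strand; FBgn0033268), encodes a secreted protein reported in glia of the larval nervous system. Its counts made up 92.3 to 93.9% of all Obp counts in a library, and Obp44a with Obp99a made up 99.2 to 99.9%. Among all genes it ranked between 8 and 13 by CPM, and 2 or 3 by CPM per kilobase of exon. Obp99a (chromosome 3R, 29671657 to 29672334, plus strand) ranked 589 to 945 by CPM and 108 to 138 per kilobase. Per kilobase, the level of Obp44a was 6.91 to 8.98 times that of Obp99a. As a share of a library's counts, all Obp genes together were 0.415 ± 0.0258% in 12xWT (SD, n = 6) and 0.457 ± 0.0334% in yw (SD, n = 4), and without Obp44a 0.0292 and 0.0330%. The 12xWT libraries ran from 0.388 to 0.458% and the yw libraries from 0.419 to 0.493%, so the genotypes overlapped.

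The most abundant members, Obp44a, Obp99a and Obp99b, belong to the Minus-C class. Conserved cysteines mark the classic odorant binding protein fold, and the Minus-C proteins have lost some of them while the Plus-C proteins have gained some. The 6 genes of the Minus-C class (Obp8a, Obp44a, Obp99a, Obp99b, Obp99c and Obp99d) summed to 3876 to 4933 CPM per library. The 13 Plus-C genes summed to 0.481 to 2.01 CPM, and the 32 genes of neither class to 1.42 to 4.99 CPM. Both classes were written down with these levels known, so the contrast is a description. Per kilobase the mean level over all libraries was 3726 CPM for Obp44a, 480 for Obp99a, 15.2 for Obp99b, 1.45 for Obp49a, 1.28 for Obp99c and 1.08 for Obp56a. The library ranges of Obp49a, Obp99c and Obp56a overlapped, so their order among each other is not fixed by these data.

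By position, 29 members lie on 2R, 12 on 3R, 6 on X and 2 each on 2L and 3L. With gaps of at most 10 kb, 31 members fall into 9 clusters. Proximity did not always go with a shared level: in the 16.3 kb from Obp56a to Obp56f (chromosome 2R, 19697723 to 19713976), 3 members were tested, Obp56b had counts in 8 libraries, and Obp56e and Obp56f had none. Other clusters, such as Obp19a to Obp19d and Obp57a to Obp57c, were low throughout and had no tested member. In the Obp50a to Obp50e cluster only Obp50d (4 counts over all libraries) and Obp50e (54) had counts, and the 0 of Obp50b and Obp50c is not informative. Exons of 13 members overlap another gene in the annotation, among them Obp44a with Pabp2 and Obp99c with Gycalpha99B, both on the opposite strand. The counting used no strand setting, so reads from those overlaps cannot be assigned with certainty.

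The genotype comparison asks how brains with 12 histone repeats differ from those with 200, with sex as a covariate, over all 10 libraries. Among the 14 tested Obp genes, 3 rose in 12xWT (Obp49a, Obp56a and Obp99c) and 4 fell (Obp28a, Obp44a, Obp56c and Obp56h) by edgeR's quasi-likelihood test at a Benjamini-Hochberg adjusted p under 0.05. That is 7 of 14, where 33.4% of all 11146 tested genes were called (17% higher and 16.4% lower). The median log2 fold change over the tested members was 0.50, and it was 0.50 with Obp56c set to its bound. Over all tested genes it was 0.00047. Obp56c, Obp56d, Obp56h and Obp28a were mainly found in yw males, so a member that passed the filter through that group had to differ. Obp56a, Obp69a, Obp18a and Obp83g passed it only through 12xWT libraries, so they were favoured to be higher in 12xWT, which raises the median. Neither the count nor the median stands for the whole family. Within males 1 member was higher and 6 were lower (11.1 and 9.91% of all genes), and within females 2 were higher and none lower (7.04 and 5.57% of all genes). No member was lower in females at an unadjusted p under 0.05 by edgeR (count 0), and DESeq2 called 0.

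**Figure D2:**
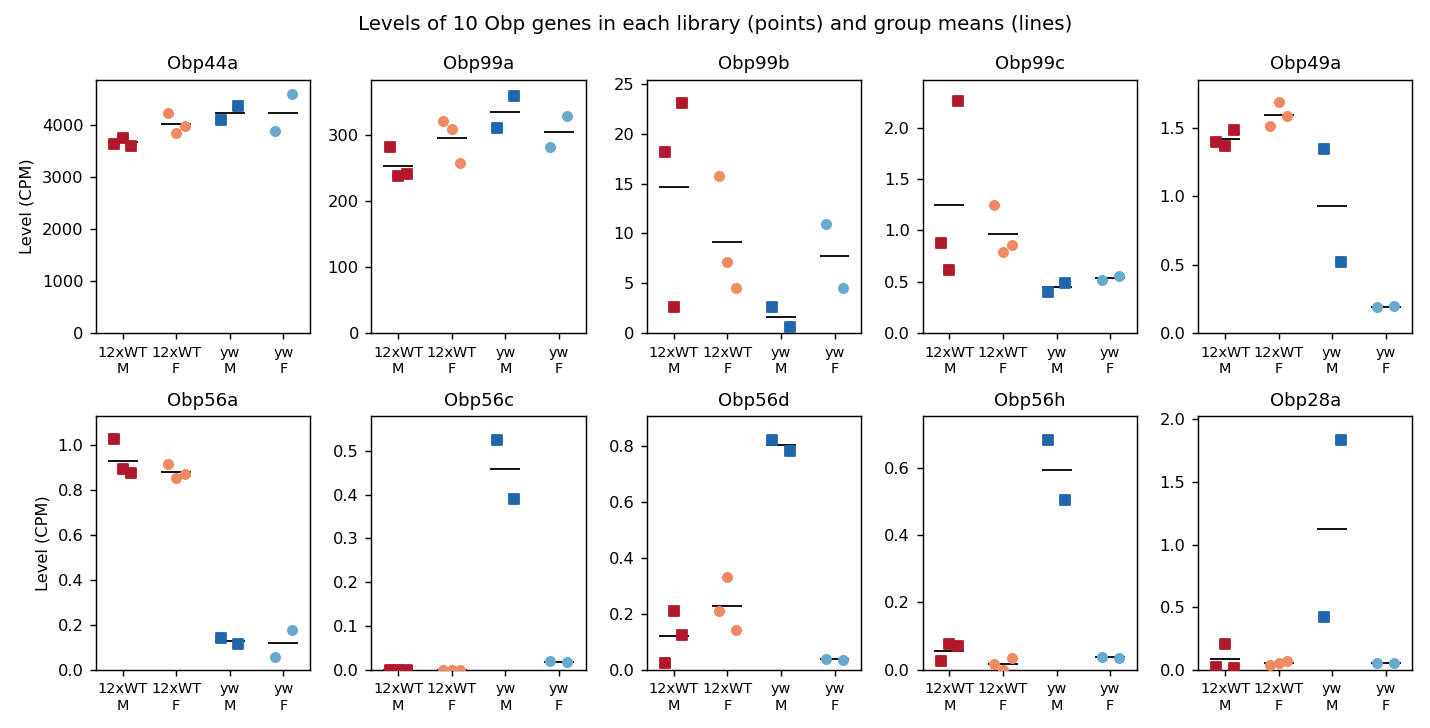
Level in CPM (vertical axis, from 0) of 10 Obp genes, with 1 point per library and a line at each group's mean, for 12xWT males, 12xWT females, yw males and yw females from left to right. Obp56a is higher in all 12xWT libraries, and Obp56c, Obp56d, Obp56h and Obp28a are highest in the 2 yw male libraries.

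Obp56a had the lowest edgeR adjusted p for genotype among the tested members. It passed the filter on low counts through the 12xWT libraries, with at most 10 counts in a yw library. Its direction was thus favoured by the filter. Without that filter Obp56a had a log2 fold change of 2.84 (edgeR adjusted p = 4.2e-07). It lies at 19697723 to 19698508 on chromosome 2R (plus strand; FBgn0034468) and shares exons with no other gene. It had 1.03, 0.895 and 0.874 CPM in 12xWT males and 0.915, 0.855 and 0.874 CPM in 12xWT females, against 0.140 and 0.114 CPM in yw males and 0.0577 and 0.178 CPM in yw females. All 6 of the 12xWT libraries were above all 4 of the yw libraries. The mean was 0.906 ± 0.0621 CPM in 12xWT (SD, n = 6) and 0.122 ± 0.0505 CPM in yw (SD, n = 4), with a log2 fold change of 2.84 (SE 0.24, adjusted p = 4.22e-06 by edgeR). The log2 fold change was 2.84 within males (edgeR adjusted p = 2.88e-04) and 2.84 within females (edgeR adjusted p = 4.21e-04), and 2.85 without the 3 libraries labelled 12xWT female (edgeR adjusted p = 0.00188). The nearest gene that is not a member, the noncoding RNA gene CR44506 at a distance of 528 bases, also rose, to 4.66 CPM in 12xWT against 1.41 CPM in yw (log2 fold change 1.71, edgeR adjusted p = 3.31e-06). In the same cluster Obp56c was called lower over both sexes, and Obp56d was called lower in males but not over both sexes.

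Obp49a, which acts in taste hairs of the adult fly where bitter compounds suppress the response to sugar, was called in females and not in males. It is at 12690059 to 12690955 on chromosome 2R (minus strand; FBgn0050052). Its level was 1.40, 1.37 and 1.49 CPM in 12xWT males and 1.51, 1.69 and 1.59 CPM in 12xWT females, against 1.35 and 0.520 CPM in yw males and 0.192 and 0.196 CPM in yw females. The yw females were lowest, the yw males lay between, and 1 yw male library came close to the 12xWT range without reaching it. The log2 fold change was 1.52 over both sexes (SE 0.45, edgeR adjusted p = 0.0280), 3.00 in females (SE 0.38, edgeR adjusted p = 4.30e-04) and 0.59 in males (SE 0.31, edgeR adjusted p = 0.201). A direct test of the difference between the sexes did not pass (-2.41, SE 0.49, edgeR adjusted p = 0.663). The call over both sexes was lost without yw male replicate 2, yw female replicate 1 or yw female replicate 2 (log2 fold change 1.21 to 1.44, edgeR adjusted p = 0.0827 to 0.0844), and without yw male replicate 1 the value was 2.26. Leaving out the libraries labelled 12xWT female gave 0.59 (edgeR adjusted p = 0.267), and the female contrast rests on them, so it has no value without them. Its neighbours CG30053 (183 bases away) and CG8768 (353 bases away) had log2 fold changes of 0.10 and -0.18.

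Obp99c is at 29685736 to 29689311 on chromosome 3R (minus strand; FBgn0039682). Its level was 0.876, 0.609 and 2.26 CPM in 12xWT males and 1.25, 0.785 and 0.856 CPM in 12xWT females, against 0.402 and 0.488 CPM in yw males and 0.519 and 0.552 CPM in yw females. Every 12xWT library was above every yw library, and the spread within 12xWT was wide, with male replicate 3 highest. The log2 fold change was 1.14 (SE 0.36, edgeR adjusted p = 0.0328), with neither sex passing alone. The call was lost without 12xWT female replicate 1 or any 1 of the 4 yw libraries (log2 fold change 1.01 to 1.23, edgeR adjusted p = 0.0596 to 0.109), and without 12xWT females (1.46, edgeR adjusted p = 0.120). The summed level of a list of cuticle and tracheal genes, of which 10 were tested, was 102 to 208 CPM in 12xWT males, 104 to 167 in 12xWT females, 87.3 to 94.5 in yw males and 97.9 to 112 in yw females. The same 2 libraries, 12xWT male replicate 3 and female replicate 1, were highest for that list and for Obp99c, while the order of the other libraries differed. Of the 10 genes 1 rose for genotype (Ccp84Aa, a cuticle protein gene) and none fell, where 17% of all tested genes were higher and 16.4% lower. None was at 0. The part of these genes in the Obp99c result was not tested.

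For Obp44a the genotype difference was small. Levels were 3645, 3768 and 3609 CPM in 12xWT males and 4242, 3863 and 3992 CPM in 12xWT females, against 4098 and 4383 CPM in yw males and 3893 and 4599 CPM in yw females. The 12xWT males were below all other libraries, and the females of both genotypes overlapped. The log2 fold change was -0.16 over both sexes (SE 0.051, edgeR adjusted p = 0.0287), -0.23 in males (SE 0.071, edgeR adjusted p = 0.0444) and -0.10 in females (SE 0.071, edgeR adjusted p = 0.413). Leaving out 12xWT male replicate 1, 12xWT female replicate 2, either yw male library or yw female replicate 2 ended the call over both sexes (-0.17 to -0.13, edgeR adjusted p = 0.0571 to 0.115), as did scaling by library size alone (-0.14, edgeR adjusted p = 0.0557). Without the libraries labelled 12xWT female it was -0.23 (edgeR adjusted p = 0.0621). In males the call was lost without any 1 of the 5 male libraries, 12xWT female replicate 2 or 12xWT female replicate 3 (-0.28 to -0.18, edgeR adjusted p = 0.0502 to 0.291).

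More glial markers fell than rose, where 17% of all tested genes were higher and 16.4% lower for genotype. A fall was not particular to glia, as 5 of 8 neuron genes and 4 of 6 neuroblast genes also fell and none rose. Of 12 glial genes 2 rose (Tret1-1 and loco) and 6 fell, led by alrm, an astrocyte gene (log2 fold change -0.47), and wrapper, a cortex and midline glia gene (-0.43). The median was -0.15 and none was at 0. Their summed level was 1074 to 1170 CPM in 12xWT males, 1078 to 1255 in 12xWT females, 1305 to 1385 in yw males and 1189 to 1291 in yw females. Across the 6 libraries of 12xWT, Pearson's r of Obp44a with this sum was 0.331 and Spearman's rho 0.314. Exact permutation p was 0.544 and 0.564, with Benjamini-Hochberg adjusted values of 0.891 and 0.931 over 30 relations. Without the 2 libraries farthest from the median r was 0.979. The part of glia in the Obp44a result was not tested.

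Obp99a had 282, 238 and 241 CPM in 12xWT males and 321, 310 and 258 CPM in 12xWT females, against 311 and 360 CPM in yw males and 282 and 329 CPM in yw females. The genotypes overlapped as a whole, while the male groups did not. Over both sexes the log2 fold change was -0.25 (SE 0.10) and missed the threshold (edgeR adjusted p = 0.0912), although DESeq2 called it (adjusted p = 0.0141). It was -0.42 in males (SE 0.12, edgeR adjusted p = 0.0377) and -0.07 in females (edgeR adjusted p = 0.760). The male call was lost without 12xWT male replicate 2 or 3, 12xWT female replicate 2 or either yw male library (-0.53 to -0.31, edgeR adjusted p = 0.0536 to 0.242), and under library-size scaling (-0.40, edgeR adjusted p = 0.0598). Without yw female replicate 1 the difference over both sexes was called (-0.33, edgeR adjusted p = 0.0377), as it was without the libraries labelled 12xWT female (-0.42, edgeR adjusted p = 0.0451).

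Obp99b varied more between libraries than between genotypes. It is known as turn on sex-specific, a gene of the male head fat body in adults, and lies at 29716254 to 29716896 on chromosome 3R (minus strand; FBgn0039685). It had 18.2, 2.65 and 23.1 CPM in 12xWT males and 15.8, 7.15 and 4.56 CPM in 12xWT females, against 2.66 and 0.601 CPM in yw males and 11.0 and 4.52 CPM in yw females. The genotypes overlapped, and so did 12xWT males with every other group, while both yw males were below the females of either genotype. No test called it: the genotype log2 fold change was 1.44 (SE 0.94, edgeR adjusted p = 0.282) and the sex log2 fold change -0.30 (edgeR adjusted p = 0.983). The genotype value was 0.89 without yw male replicate 2, 2.18 without yw female replicate 1 and 3.17 without the libraries labelled 12xWT female (edgeR adjusted p = 0.532, 0.149 and 0.185).

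The level of Obp99b followed that of larval fat body transcripts. The list held Lsp1alpha, Lsp1beta, Lsp1gamma, Lsp2, Fbp1 and Fbp2, which encode larval serum proteins and other proteins of the fat body, a tissue outside the brain. Their summed level was 356, 39.4 and 508 CPM in 12xWT males and 289, 130 and 74.1 CPM in 12xWT females, against 46.0 and 7.84 CPM in yw males and 201 and 71.0 CPM in yw females. Obp99b was 4.54 to 7.68% of that sum in every library while the sum itself spanned 7.84 to 508 CPM. Across the 6 libraries of 12xWT, Pearson's r was 0.999 and Spearman's rho 1 (exact permutation p = 0.00278 for both, two-sided and the smallest that 6 libraries allow; Benjamini-Hochberg adjusted 0.0833 over 30 relations), and r was 0.995 without the 2 libraries farthest from the median. The 30 relations set 3 members (Obp44a, Obp99a and Obp99b) against 10 marker lists, and yw had too few libraries for a correlation. None of the 6 fat body genes passed the test for genotype (median log2 fold change 1.67), and none was at 0. Whether fat body RNA supplied the Obp99b counts was not tested.

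**Figure D3:**
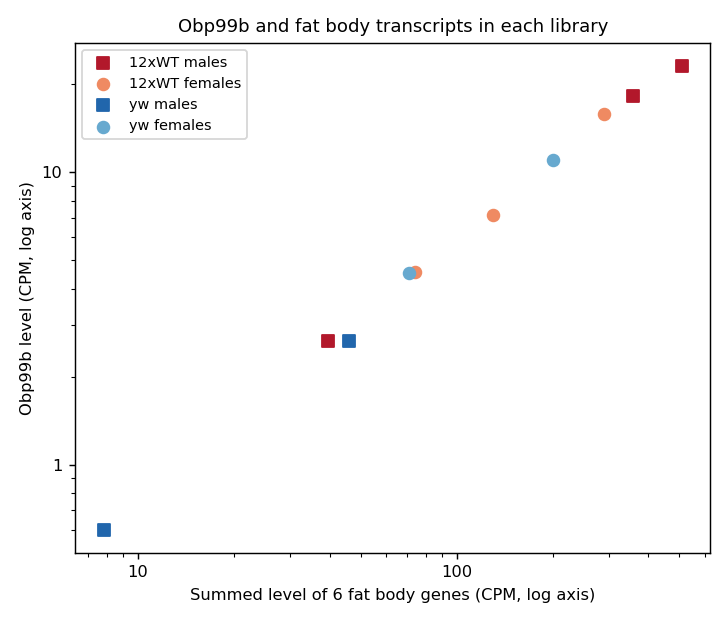
Obp99b level against the summed level of 6 larval fat body genes, both in CPM on log axes, with 1 point per library. Over sums from 7.84 to 508 CPM Obp99b stays at 4.54 to 7.68% of the sum, and the groups are mixed along the line.

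A further set of Obp genes, Obp56c, Obp56h, Obp56d and Obp28a, was highest in yw males. Obp56c, Obp56h and Obp28a passed the filter on low counts only through the yw males. Their direction for genotype was thus largely fixed by the filter. Without that filter edgeR gave an adjusted p for genotype of 7.28e-05 for Obp56c, 3.16e-04 for Obp56h and 0.0513 for Obp28a. Obp56c (chromosome 2R, 19699995 to 19701124, minus strand; FBgn0046879) had 0 counts in all 6 of the 12xWT libraries, which allows up to 0.0375 to 0.0571 CPM each. It had 30 and 24 counts in yw males (0.524 and 0.390 CPM) and 1 count in each yw female library (0.0192 and 0.0178 CPM). Only the yw males stood above the level of 3 counts. Taking 3 counts per library for 12xWT, the level was at least 4.67-fold lower in 12xWT than in yw, and at least 9.32-fold lower in males (edgeR adjusted p = 5.17e-04 and 0.00114). Without the libraries labelled 12xWT female the genotype call stood (edgeR adjusted p = 0.00118). The 12xWT females and yw females were all at or under that limit. In yw the ratio of males to females was 24.6, with a 95% exact counting interval of 6.49 to 208.

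Obp56h, whose reduction in male flies is known to shorten the time to mating, showed a like distribution at 19815554 to 19816204 on chromosome 2R (plus strand; FBgn0034475). It had 0.0250, 0.0762 and 0.0700 CPM in 12xWT males and 0.0176, 0 and 0.0357 CPM in 12xWT females, against 0.682 and 0.504 CPM in yw males and 0.0384 and 0.0356 CPM in yw females. The yw males were above all other libraries, which overlapped among themselves. The log2 fold change for genotype was -2.99 (SE 0.48, edgeR adjusted p = 6.65e-04), and in males -3.43 (SE 0.49, edgeR adjusted p = 7.91e-04). Without the libraries labelled 12xWT female it was -3.43 (edgeR adjusted p = 0.00124).

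Obp56d, expressed in adult chemosensory organs, is at 19702924 to 19703915 on chromosome 2R (minus strand; FBgn0034470). Its level was 0.0250, 0.209 and 0.122 CPM in 12xWT males and 0.211, 0.331 and 0.143 CPM in 12xWT females, against 0.822 and 0.780 CPM in yw males and 0.0384 and 0.0356 CPM in yw females. The yw males were highest, and the yw females were below every 12xWT library except male replicate 1. In males the log2 fold change was -2.86 (SE 0.53, edgeR adjusted p = 0.00368), in females 2.54 (SE 0.80, edgeR adjusted p = 0.0643), and over both sexes -1.05 (SE 0.88, edgeR adjusted p = 0.397). The value over both sexes was -0.52 without 12xWT male replicate 1, -0.67 without yw male replicate 1, and -1.58 without yw female replicate 2, with no call (edgeR adjusted p = 0.660, 0.652 and 0.220). Without the libraries labelled 12xWT female, the value over the other 7 libraries was -2.86 (edgeR adjusted p = 0.00730).

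Obp28a, an abundant antennal odorant binding protein in adults, was the most variable of these genes. It is at 7496791 to 7497365 on chromosome 2L (minus strand; FBgn0011283). It had 0.0250, 0.209 and 0.0175 CPM in 12xWT males and 0.0352, 0.0523 and 0.0713 CPM in 12xWT females, against 0.420 and 1.84 CPM in yw males and 0.0577 and 0.0534 CPM in yw females. Both yw male libraries were above all others, with replicate 2 far above replicate 1. The log2 fold change was -2.89 over both sexes (SE 0.85, edgeR adjusted p = 0.0269) and -3.87 in males (SE 0.82, edgeR adjusted p = 0.0103), and -3.87 without the libraries labelled 12xWT female (edgeR adjusted p = 0.0365). The call over both sexes was lost without 12xWT male replicate 1 or 3 or yw male replicate 2 (-2.49 to -1.54, edgeR adjusted p = 0.0582 to 0.143), and the male call without yw male replicate 2 (-2.44, edgeR adjusted p = 0.118).

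Among the untested genes, 3 had most of their counts in 1 yw male library and were singled out after their values were seen. Obp56b had 23 and 3 counts in the yw males (0.402 and 0.0488 CPM) and at most 4 in any other library. Obp58c had 0 and 19 counts in the yw males (0 and 0.309 CPM) and at most 3 elsewhere. Its neighbour Obp58b had 0 and 4 counts in the yw males and 1 count elsewhere. Obp56b was thus high in yw male replicate 1, and Obp58b and Obp58c in replicate 2.

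**Figure D4:**
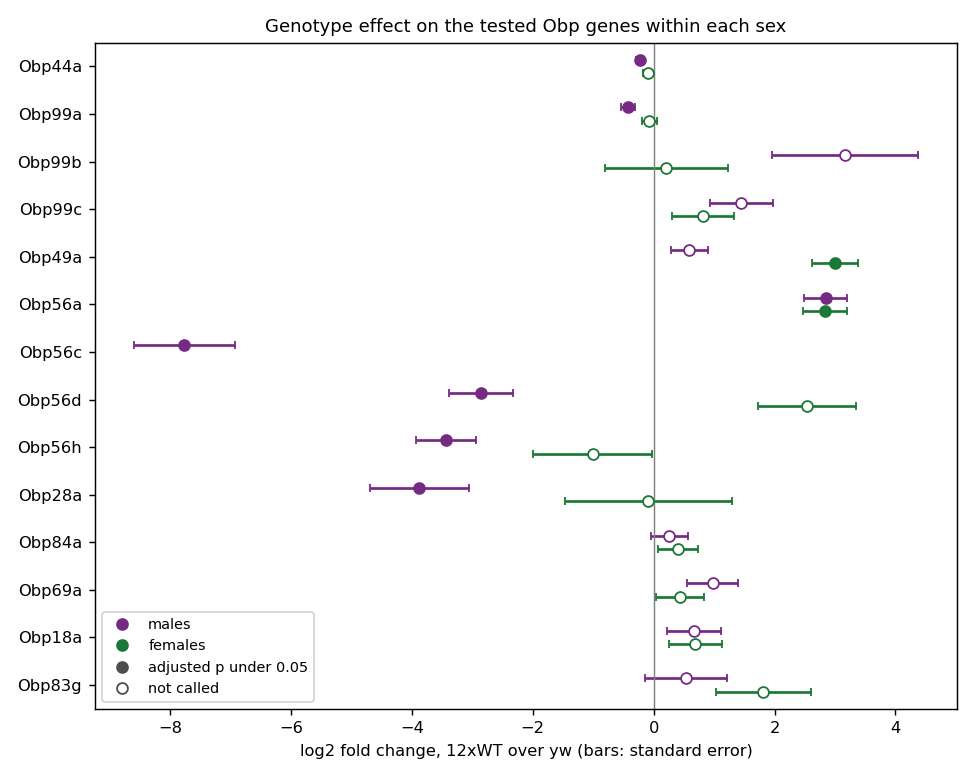
Fitted log2 fold change of 12xWT over yw (horizontal axis) for the tested Obp genes in males (purple) and females (green), with bars for the standard error and filled points for an edgeR adjusted p under 0.05. Obp56a is higher in both sexes, Obp49a in females, and Obp56c, Obp56d, Obp56h and Obp28a are lower in males; the fitted value of Obp56c depends on a group at 0 counts and is no bound, and its female value, at the limit of 3 counts, is not drawn.

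The sex comparison set 5 male against 5 female libraries with genotype as a covariate. Of the 14 tested members 2 were higher in males, Obp56c and Obp56h, and none was lower (0.637 and 1.04% of all genes). Both genes passed the filter on low counts through the yw males, with at most 1 and 4 counts in any other library, so their direction was fixed by the filter and their number is not read against that share. By edgeR 0 members were lower at an unadjusted p under 0.05, and DESeq2 called 0 lower. Obp56h had a log2 fold change of 3.14 (SE 0.55, edgeR adjusted p = 0.0163), and Obp56c an adjusted p of 0.0308 by edgeR. Each of these calls was lost without any 1 of the 4 yw libraries (edgeR adjusted p = 0.110 to 0.210 for Obp56c and 0.0588 to 0.110 for Obp56h). Without the libraries labelled 12xWT female, Obp56h kept its call (3.92, edgeR adjusted p = 0.0269) and Obp56c had an adjusted p of 0.0530 by edgeR.

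Within yw, 4 tested members were higher in males than in females and none was lower (0.44 and 0.368% of all genes), while within 12xWT none was called in either direction (0.0179 and 0.0359% of all genes higher and lower). Of the 4, Obp56c and Obp56h had passed the filter through the yw males and so had to be higher there, and nothing is read from the count. The 12xWT contrast rests on the libraries labelled 12xWT female, which did not look purely female. Its lack of calls is therefore not read as a lack of sex differences in 12xWT. No member passed an unadjusted p under 0.05 in 12xWT by edgeR (count 0), and DESeq2 called 0. None was lower in yw males at an unadjusted p under 0.05 either, and DESeq2 called 0 lower. The log2 fold changes in yw were 4.36 for Obp56d (SE 0.74, edgeR adjusted p = 0.0265), 3.92 for Obp56h (SE 0.62, edgeR adjusted p = 0.0184) and 2.24 for Obp49a (SE 0.41, edgeR adjusted p = 0.0373). Obp56c had an adjusted p of 0.0479 by edgeR. For Obp28a the value was 4.30 (SE 1.02) and missed the threshold (edgeR adjusted p = 0.137). With 2 libraries per sex, the calls of Obp56d and Obp56h were lost without any 1 yw library (edgeR adjusted p = 0.117 to 0.231 and 0.0748 to 0.199). Obp56c lost its call without any 1 yw or 12xWT female library (edgeR adjusted p = 0.0522 to 0.379). Obp49a lost its call without yw male replicate 1, either yw female library, 12xWT male replicate 1 or any 1 of the 12xWT females (1.41 to 2.25, edgeR adjusted p = 0.0529 to 0.272).

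Whether the genotype effect differed between the sexes was tested directly. No tested member passed, as no gene did (0% higher and 0% lower). The lowest adjusted p among members was 0.321 for Obp56d (difference of log2 fold changes -5.40, SE 0.94), and Obp49a had 0.663 (-2.41, SE 0.49), both by edgeR. At an unadjusted p under 0.05 edgeR found 3 members lower and 456 genes in all, and DESeq2 called 2 members, with an adjusted p of 0.0302 for Obp56d.

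Some salivary gland transcripts also differed between the sexes. Of 7 tested salivary gland genes 2 were higher in males over both genotypes by edgeR (the glue genes Sgs5 and Sgs3) and none was lower. The shares of all genes were 0.637% higher and 1.04% lower. That comparison includes the libraries labelled 12xWT female. The list summed to 5.01 to 15.0 CPM in 12xWT males and 2.55 to 5.16 in 12xWT females. In yw the sums were 9.95 to 10.4 CPM in males and 2.35 to 2.69 in females. None of the list was at 0 in every library. No salivary gland gene passed the edgeR test for genotype. The part of this tissue in the Obp sex differences was not tested.

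The other 4 tested members were low and not called in any test. Obp84a, Obp69a, Obp18a and Obp83g had at most 0.420 CPM and 29 counts in a library. Their genotype log2 fold changes were 0.32, 0.69, 0.68 and 1.08, with edgeR adjusted p = 0.264, 0.0828, 0.0980 and 0.130. Obp84a is an antennal gene, and Obp69a is known from social responses to a male pheromone.

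A table of the authors' own comparison was also deposited, given as yw over 12xWT, so its signs run opposite to those above. The authors' deposited table lists 9 Obp genes, of which 5 have an adjusted p under 0.05. Obp56c and Obp56h, both called for genotype above, are not among the 9, so they cannot be compared. In the authors' deposited table these are Obp56a (log2 fold change -2.86), Obp49a (-1.39), Obp99c (-1.15), Obp44a (0.16) and Obp28a (3.14). Obp99a has an adjusted p of 0.0501 in the authors' deposited table.

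Other genes of chemosensation were read for genotype beside the 17% of all tested genes that were higher and the 16.4% that were lower, and the shares called among receptor genes were near the 33.4% called in either direction. Odorant receptors are the membrane proteins that ligands meet after the lymph, and of 19 tested 4 rose and 3 fell by edgeR (median log2 fold change 0.19). Orco, their shared co-receptor, was at 0.851 ± 0.0788 CPM in 12xWT and 0.481 ± 0.124 CPM in yw (SD, n = 6 and 4; log2 fold change 0.81, edgeR adjusted p = 0.00464), Or85f had 0.80, Or49b -4.66 and Or67d, a receptor for a male pheromone, -1.02. Of 18 ionotropic receptor genes 4 rose and 1 fell (median 0.14). Ir76a was at 13.1 ± 0.993 CPM in 12xWT and 2.31 ± 0.512 CPM in yw (SD, n = 6 and 4; log2 fold change 2.48, edgeR adjusted p = 1.07e-07), Ir100a had 1.60 and Ir54a -1.68. Of 20 gustatory receptor genes 3 rose and 4 fell (median -0.15), with Gr39b at 3.57, Gr61a at 1.03, Gr8a at -4.41 and Gr28b at -1.65. Of 14 other carrier and perireceptor genes 5 rose and none fell (median 0.41), led by Npc2g (1.84), a sterol carrier gene, and Snmp2 (1.66), a membrane protein gene. In the sex comparison none of these 4 lists had a called gene by edgeR, where 0.637% of all genes were higher and 1.04% lower. With shares that low, and with the libraries labelled 12xWT female included, nothing is read from this lack of calls.

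Among further tissue lists, read for genotype beside the same shares of all genes (17% higher and 16.4% lower), none of 8 neuron genes rose and 5 fell, none of 6 neuroblast genes rose and 4 fell, and none of 11 eye-antennal disc genes rose and 3 fell. Ring gland genes rose in 6 of 8, hemocyte genes in 2 of 6 (NimC1 and srp) and muscle genes in 1 of 6 (Act57B), with none lower. The part of these tissues in the Obp results was not tested. Beside the 9 called members lie 14 distinct neighbouring genes, of which 10 were tested. For genotype 1 neighbour rose (CR44506) and 3 fell (RapGAP1, CG8768 and CG7582), near the 33.4% of all genes called, and for sex within yw 0 were called.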

How the data were processed

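The authors counted read pairs per gene over exons with featureCounts 2.0.1 on dm6, without a strand option, per the file headers, and the deposited counts are unnormalized. The submitters' processing notes also name STAR 2.7.7a, SAMtools 1.9 and DESeq2 1.34.0. The authors' deposited table gives log2 fold changes of yw over 12xWT with p-values and adjusted p-values, used here for comparison alone. Sample titles gave genotype, sex and replicate.

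Counts of 16727 genes in 10 libraries were filtered with filterByExpr, which left 11146 genes, scaled by TMM and tested with edgeR 4.0.16 (robust quasi-likelihood, R 4.3.3). Genotype and sex were tested in 1 additive model, and effects within a group and their difference in a model with 4 group means, in 7 tests at a Benjamini-Hochberg adjusted p under 0.05 over all genes. CPM uses library totals without TMM. DESeq2 1.42.0, other scalings and filters, a replicate block and left-out libraries were alternatives. The fits were tested on simulated data. Names matched the Ensembl annotation for 51 of 51 members. Members, marker lists (14) and classes were chosen with earlier results of these data known. Members with a mean of at least 1 CPM in a group or called in any test were named with all values.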

Additional observations from a re-analysis of the deposited data

Results flagged for a closer look

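Obp28a in 12xWT male replicate 2 stood apart from the other 12xWT libraries, at 0.209 CPM, with a gap to the next library of 0.720 of the range over 6 libraries. Obp56a in 12xWT male replicate 1 did so at 1.03 CPM, with a gap of 0.645 of the range, and was still above every yw library. Chance alone marks about 1 in 20 groups in this way, and 19 groups were examined.

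Obp56d had genotype log2 fold changes of opposite sign in the sexes, -2.86 in males (edgeR adjusted p = 0.00368) and 2.54 in females, where it missed the threshold (edgeR adjusted p = 0.0643) and rests on the libraries labelled 12xWT female. Libraries did not overlap within either sex. The male effect minus the female effect was -5.40 on the log2 scale. The test of that difference gave an adjusted p of 0.321 by edgeR and 0.0302 by DESeq2, both with Benjamini-Hochberg adjustment.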

How the results depend on the processing

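Of 477 values of 26 member results under alternatives, 383 stayed on the same side of the threshold, 89 lost a call, 5 gained one and none reversed. Left-out libraries moved the genotype counts over 1 to 4 higher and 2 to 6 lower, the count higher in males against females over 0 to 2, that within yw over 0 to 5, the male genotype count higher over 1 to 2, and the genotype by sex count lower over 0 to 1. The genotype count higher was 1 without yw male replicate 2 or either yw female library, and that lower was 2 without 12xWT male replicate 1. DESeq2 gave 1 member higher for sex, 3 higher for genotype in males and 2 lower for genotype by sex, and fits without robust estimation gave 2 higher in males. Without the libraries labelled 12xWT female, 1 member was higher for genotype and 1 for sex, an alternative chosen after seeing the data.

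Replicate numbers do not pair the libraries: over 13 same-numbered pairs the correlation of deviations was -0.172 to 0.104, above 0.1 in 1. With the replicate block, 1 member was higher for genotype, 1 for sex and 1 for sex within yw. The calls ended were Obp44a, Obp49a and Obp99c for genotype, Obp44a and Obp99a in males, Obp56c for sex, and Obp49a, Obp56c and Obp56d within yw. The Obp share in 12xWT was 0.442% without the 10 genes with most counts in the denominator. Without Obp44a it was 0.0292% in 12xWT and 0.0330% in yw. The cause of these changes was not tested. Levels under 3 counts, which covers most members, are at the limit of depth.

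Besides the left-out libraries given with each gene, single calls were ended by other choices. Without a filter on low counts these were Obp28a (log2 fold change -2.87) and Obp49a (1.52) for genotype and Obp99a (-0.42) in males. DESeq2 ended those of Obp56c for sex and for sex within yw, and a fit without robust estimation those of Obp44a in males and Obp56c within yw. Scaling by library size alone ended those of Obp44a for genotype and of Obp44a and Obp99a in males, and so did requiring a 2-fold change. Obp56c for genotype was lost without a sex term, Obp28a and Obp99a in males with male libraries alone, and Obp49a within yw with yw libraries alone.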
